A study of Homo sapiens with 6 samples.

Results

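The 5 mRNAs described here encode parts of the translation machinery. They are RPS18, RPLP1, RPL10 and RACK1, which belong to the ribosome, and EIF3D, a subunit of an initiation factor. They were chosen by what they encode and by the RefSeq identifier that the array files give to a probe. No rule on their values was used, but earlier results of these data were known. Each had 1 probe printed at 10 spots on every array, and they made up 5 of the 20 mRNAs spotted in this way, among 60596 target probes used in all. The cells were MDA-MB-231, an established human breast cancer line, given PBS (the control), LPS, IL1b, TNFa, IL6 or TGFb and collected at 24 h. LPS is a bacterial cell wall lipid that sets off inflammation, IL1b, TNFa and IL6 are inflammatory cytokines, and TGFb is a growth factor that also shapes inflammation. Doses are not given in the labels. The series was designed as a screen of long non-coding RNAs for a response to such signals, and mRNA probes share the array. There was 1 array of total RNA for each of the 6 conditions, so the treatments were compared with 1 PBS array that all 5 comparisons share, no difference has a replicate check, and no test was possible. Errors below are the spread over repeat spots within an array and cover spot noise alone, and the number of arrays limits every value.

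A ribosome has a small subunit, which reads the mRNA, and a large subunit, which joins the amino acids. Translation starts when initiation factors, eIF3 among them, bring the small subunit to the capped end of an mRNA. Many mRNAs of ribosomal proteins and translation factors begin with a run of pyrimidines at the very first base, the 5′ terminal oligopyrimidine tract, through which growth signals adjust how well they are translated. RPS18 sits in the head of the small subunit, RACK1 is a scaffold protein bound to the small subunit, RPLP1 is part of the acidic stalk of the large subunit that recruits elongation factors, RPL10 lies close to the catalytic centre of the large subunit, and EIF3D is the eIF3 subunit that can bind the mRNA cap. The repeatedly spotted mRNAs cover only some of this pathway. Of 94 genes listed by symbol as cytosolic ribosomal proteins, RACK1 included, 4 were found among the repeatedly spotted mRNAs. Of 56 genes whose symbol starts with EIF, for initiation factors, 1 was found. Of 15 whose symbol starts with EEF, for elongation factors, 0 were found. The lists go by symbol alone, so their totals can include genes that are not themselves ribosomal proteins or translation factors. All of those found are described here. None of the 9 markers listed for this cell line and for leukocytes was among them, so the identity of the cells was not checked.

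The starts of these genes are shown for this tract. The choice of genes did not read the sequence, but it took a class of mRNAs in which the tract is common. A high share with the tract among them is therefore no separate result. Each line gives 20 bases before and 20 bases from an annotated start in RefSeq (GRCh38.p14), with the uninterrupted run of C and T that begins with a C at the first transcribed base in capitals.
RPS18: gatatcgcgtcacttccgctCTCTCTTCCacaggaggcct
RPLP1: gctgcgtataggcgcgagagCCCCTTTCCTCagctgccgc
RPL10: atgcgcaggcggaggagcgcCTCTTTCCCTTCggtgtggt
RACK1: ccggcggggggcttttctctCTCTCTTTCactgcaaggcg
EIF3D: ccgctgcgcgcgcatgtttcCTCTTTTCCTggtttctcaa
The stretches lie at chr6:33272055-33272094 on the plus strand, chr15:69452798-69452837 on the plus strand, chrX:154398357-154398396 on the plus strand, chr5:181243887-181243926 on the minus strand and chr22:36529147-36529186 on the minus strand. The run was 9 bases long in RPS18 and RACK1, 10 in EIF3D, 11 in RPLP1 and 12 in RPL10, where it stands at 1 of 3 annotated starts. A run of at least 5 bases was present in all 5 genes, in 2 of the 12 other repeatedly spotted mRNAs with an entry (COX4I1 and H3-3A) and in 5.14% of all 27305 genes with an entry, taking any start of a gene. This feature was chosen after the starts had been read, it is a match of letters and not a measured site, and arrays measure RNA level, not translation.

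In the same annotation the genes span chromosome 6 from 33272075 to 33276511 (RPS18), chromosome 15 from 69452818 to 69456205 (RPLP1), chromosome X from 154398065 to 154402339 (RPL10), chromosome 5 from 181236897 to 181243906 (RACK1) and chromosome 22 from 36510855 to 36529166 (EIF3D). The files name the transcripts NM_022551, NM_001003, NM_006013, NM_006098 and NM_003753. RefSeq lists 6 mRNAs of RPL10 and 2 of RPLP1. No probe sequence was used here, so which exon or UTR a probe lies in, which of these mRNAs it reads and whether processed pseudogenes add to it are not known. Pseudogene copies are common for ribosomal protein genes.

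Levels are log2 intensities of the scanner's processed signal, quantile normalized over the 6 arrays, unless said otherwise. Before scaling, the upper quartile of the treated arrays lay above that of PBS by 0.84 under LPS, 1.83 under IL1b, 1.04 under TNFa, 1.91 under IL6 and 1.80 under TGFb (log2). The share of target probes detected, meaning flagged as well above background, ran from 33.2% with PBS to 68.4% with IL6. Per the labels, the same mass of total RNA was reverse transcribed for each array, so a level is a share of the RNA of an extract, and fewer cells of a kind cannot be told apart from less RNA per cell.

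The main pattern was one of unequal differences. On the quantile scale, EIF3D was higher than with PBS by 0.22 to 0.84 over the 5 treatments, RPS18 by 0.34 to 0.43 and RPLP1 by 0.026 to 0.15, while RACK1 ranged from -0.22 to 0.035. Other scalings of the arrays turned the direction of RPS18, RPLP1 and RACK1, and that of EIF3D turned under 1 of them. EIF3D stayed above RPLP1 and RACK1, and RPS18 above both, under each of the 8 settings compared, all with PBS as the reference. These are not 8 separate checks. Scaling to a percentile keeps by construction the gaps of no scaling. The deposited table, medians over spots and kept outlier spots all lie on the quantile scale. Against the median of the other 5 arrays, EIF3D stayed above RPLP1 and RACK1 with LPS, IL1b and TNFa. It lay below both with IL6 (-0.21) and TGFb (-0.51), and RPS18 was above both only with IL1b and TGFb. RPL10 could not be placed with the others, because its probe was at background on the PBS array. None of the 5 mRNAs lay at least 2-fold from PBS with any treatment. Over all probes whose brighter array lay above its median, 26.2% did so under LPS, 30.8% under IL1b, 31.8% under TNFa, 42.8% under IL6 and 43.8% under TGFb. Among all probes at least as bright on average as RPL10, the dimmest of the 5, the shares were 18.4%, 23.7%, 23.9%, 33.5% and 34.0% in the same order. Bright probes differed less. Of 1671 probes detected on all 6 arrays and at least as bright on average as EIF3D, 3.17% lay at least 2-fold from PBS under LPS, 4.31% under IL1b, 5.92% under TNFa, 6.46% under IL6 and 6.64% under TGFb. For the 4 mRNAs detected on every array, a count of 0 is therefore near the background for bright probes and says little about them. RPL10 is not among these bright probes.

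**Figure D1:**
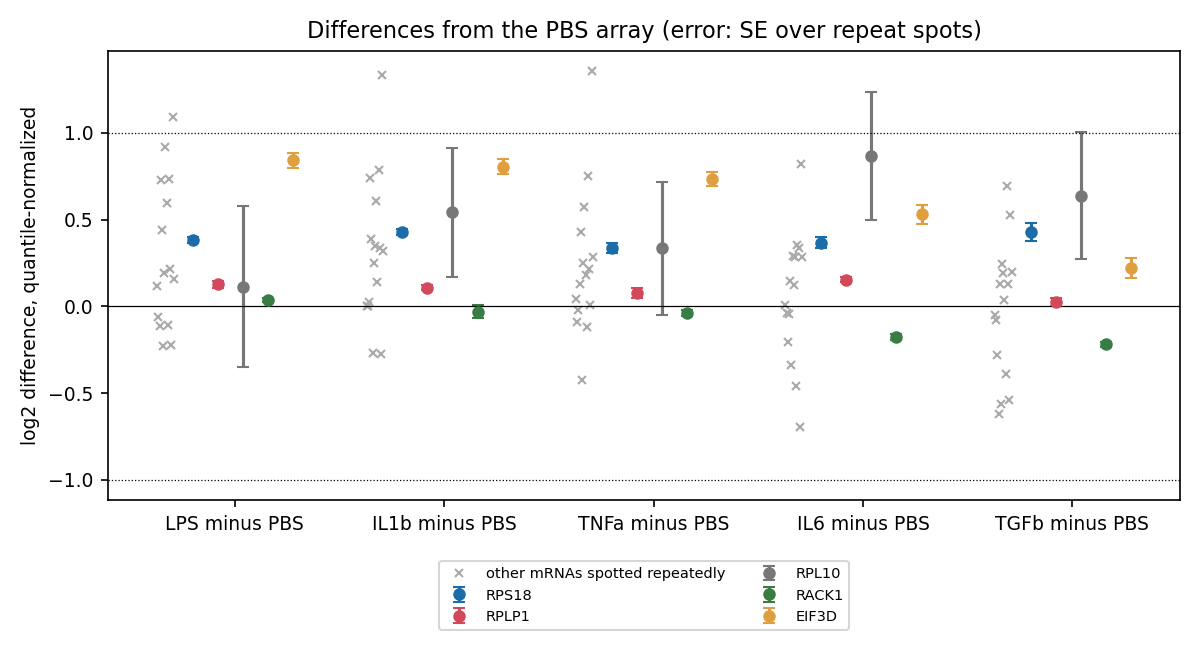
Log2 difference of each treated array from the PBS array on the quantile-normalized scale (vertical axis), by treatment (horizontal axis). Coloured points are the 5 mRNAs with the standard error over repeat spots, grey crosses are the 15 other repeatedly spotted mRNAs, and dotted lines mark 2-fold. EIF3D is the highest of the 4 well measured mRNAs with LPS (0.84), and RACK1 is the lowest of them with every treatment, an order that held under the other scalings, while the directions of RPS18, RPLP1 and RACK1 against PBS did not.

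EIF3D, the cap-binding subunit of eIF3, had the widest range of the 4 well measured mRNAs with quantile scaling, while RACK1 ranged wider with either percentile. Its level was 12.94 ± 0.12 under PBS, 13.78 ± 0.066 under LPS, 13.74 ± 0.078 under IL1b, 13.67 ± 0.065 under TNFa, 13.46 ± 0.12 under IL6 and 13.16 ± 0.13 under TGFb (SD over 10 spots on each array). The PBS array was lowest, and LPS, IL1b and TNFa formed a high group whose neighbours differed by less than their spot SD. The steps from TNFa down to IL6, from IL6 to TGFb and from TGFb to PBS were each larger than the spot SD of the difference. Under LPS it was 1.79-fold higher than under PBS, a difference of 0.84 ± 0.043 (SE over spots), under IL1b 1.75-fold, under TNFa 1.66-fold, under IL6 1.44-fold and under TGFb 1.17-fold. Between the treated arrays EIF3D was higher with LPS than with TGFb by 0.62 with quantile scaling, 0.79 with the 75th percentile of detected probes and 0.56 with no scaling, whereas IL6 lay below TNFa by 0.21 with quantile scaling and above it by 0.11 with no scaling. Every spot with LPS, IL1b, TNFa and IL6 was brighter than every PBS spot, while TGFb and PBS spots overlapped. When the 10 spots were paired by their line in the files, which list probes in the same order for all 6 arrays, the TGFb spot was higher in 10 of 10 pairs, by 0.14 to 0.35. Of the 4 well measured mRNAs, EIF3D alone was past 1.5-fold under LPS, IL1b and TNFa, and none was under IL6 and TGFb. Of the 1671 bright probes, 16.9%, 22.3%, 21.3%, 21.2% and 23.3% were past 1.5-fold in the same order of treatments. Of these bright probes, 20.2% had a wider range over the 6 arrays than EIF3D (0.84), beside a median range of 0.51. EIF3D is by definition the dimmest of this set. Of the 19077 probes detected on all 6 arrays, 72.7% had a wider range than EIF3D, beside a median range of 1.18.

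RPS18, a small subunit protein, was lower on the PBS array than on all the others with quantile scaling, which other scalings did not all keep. It lay at 16.20 ± 0.047 under PBS (10 spots), 16.58 ± 0.020 under LPS (9 spots after outliers were dropped), 16.62 ± 0.032 under IL1b (8 spots), 16.53 ± 0.070 under TNFa (10 spots), 16.56 ± 0.089 under IL6 (10 spots) and 16.62 ± 0.16 under TGFb (10 spots). The 5 treated arrays lay within 0.092 of each other, and no pair of neighbours among them differed by more than the spot SD, while PBS lay 0.34 below the lowest of them. No treated spot overlapped the PBS spots, which ran from 16.12 to 16.26. The fold over PBS was 1.30 under LPS, 1.35 under IL1b, 1.26 under TNFa, 1.29 under IL6 and 1.35 under TGFb. The levels with IL1b and TGFb are equal because on both arrays 44 probes were brighter, and quantile scaling gives equal ranks equal levels. On the PBS array 171 probes were brighter, and on LPS, TNFa and IL6 the number was 55, 66 and 59. The spots with TGFb spread most, from 16.41 to 16.82. Among the 1671 bright probes, 61.5% had a wider range than RPS18.

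RPLP1, the stalk protein of the large subunit, had the narrowest range of the 5 mRNAs with quantile scaling. Its level was 16.33 ± 0.040 under PBS, 16.46 ± 0.046 under LPS, 16.44 ± 0.017 under IL1b, 16.41 ± 0.088 under TNFa, 16.49 ± 0.015 under IL6 and 16.36 ± 0.062 under TGFb (8 spots under IL1b, 9 under TGFb and 10 on each of the others). No neighbours in the order of the 6 arrays differed by more than their spot SD. The ends of that order were IL6 and PBS, 0.15 ± 0.014 apart, which is 1.11-fold. Spots under LPS, IL1b and IL6 all lay above those under PBS, and spots under TNFa and TGFb overlapped them. Of the 1671 bright probes, 97.4% had a wider range.

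RACK1, the scaffold of the small subunit, was lower with IL6 and TGFb than with the other 3 treatments with quantile scaling, with either percentile and with no scaling, but not with cyclic loess, where the difference from PBS was -0.41 with TGFb and -0.49 with IL1b. PBS lay below all treatments with no scaling. It lay at 16.30 ± 0.016 under PBS (9 spots), 16.34 ± 0.031 under LPS (10 spots), 16.27 ± 0.11 under IL1b (10 spots), 16.26 ± 0.042 under TNFa (8 spots), 16.13 ± 0.052 under IL6 (10 spots) and 16.08 ± 0.030 under TGFb (8 spots). With IL6 and with TGFb every spot was dimmer than every PBS spot, by 0.18 ± 0.017 and 0.22 ± 0.012 on average, or 1.13-fold and 1.16-fold. In the order of levels, the step from TNFa down to IL6 (0.14) was larger than the spot SD, and so, narrowly, was that from LPS to PBS (0.035), while IL6 and TGFb did not differ beyond it. Spots with LPS, IL1b and TNFa overlapped those with PBS. The number of brighter probes was 132 under PBS, 119 under LPS, 143 under IL1b, 147 under TNFa, 200 under IL6 and 213 under TGFb. Of the 1671 bright probes, 88.6% had a wider range than RACK1.

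The RPL10 probe, for a large subunit protein, gave little signal. None of 10 used spots with PBS and none of 9 with LPS was well above background. With TNFa 2 of 10 spots were, with IL1b 9 of 10, and with IL6 and TGFb 8 of 8 on each. Its level was 4.87 ± 1.15 under PBS, 4.99 ± 0.86 under LPS, 5.21 ± 0.38 under TNFa, 5.42 ± 0.22 under IL1b, 5.74 ± 0.15 under IL6 and 5.51 ± 0.11 under TGFb. PBS spots ran from 3.14 to 6.02 and overlapped those of every treated array. The largest difference, 0.87 ± 0.37 with IL6, was 1.82-fold, and that with TGFb 1.56-fold, both against a PBS level that was not well above background, so neither is a strict bound. With outlier spots kept the differences with IL6 and TGFb were 0.54 and 0.53, both under 1.5-fold, and with medians over spots they were 1.14 and 0.97. In the order of arrays only the step from IL6 down to TGFb (0.23) was larger than the spot SD. Detection itself differed between arrays. Spots printed as negative controls were detected more often on the same arrays, at 12.8% under IL6 and 11.2% under TGFb, beside 0.50% under PBS and 1.83 to 2.33% under LPS, IL1b and TNFa. The part of this background in the RPL10 result was not tested. The lowest level counted as well above background was 3.26 with IL6 and 5.94 with LPS. The level of 1 probe is not set against that of another here, so this says nothing of how much RPL10 mRNA the cells held.

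**Figure D2:**
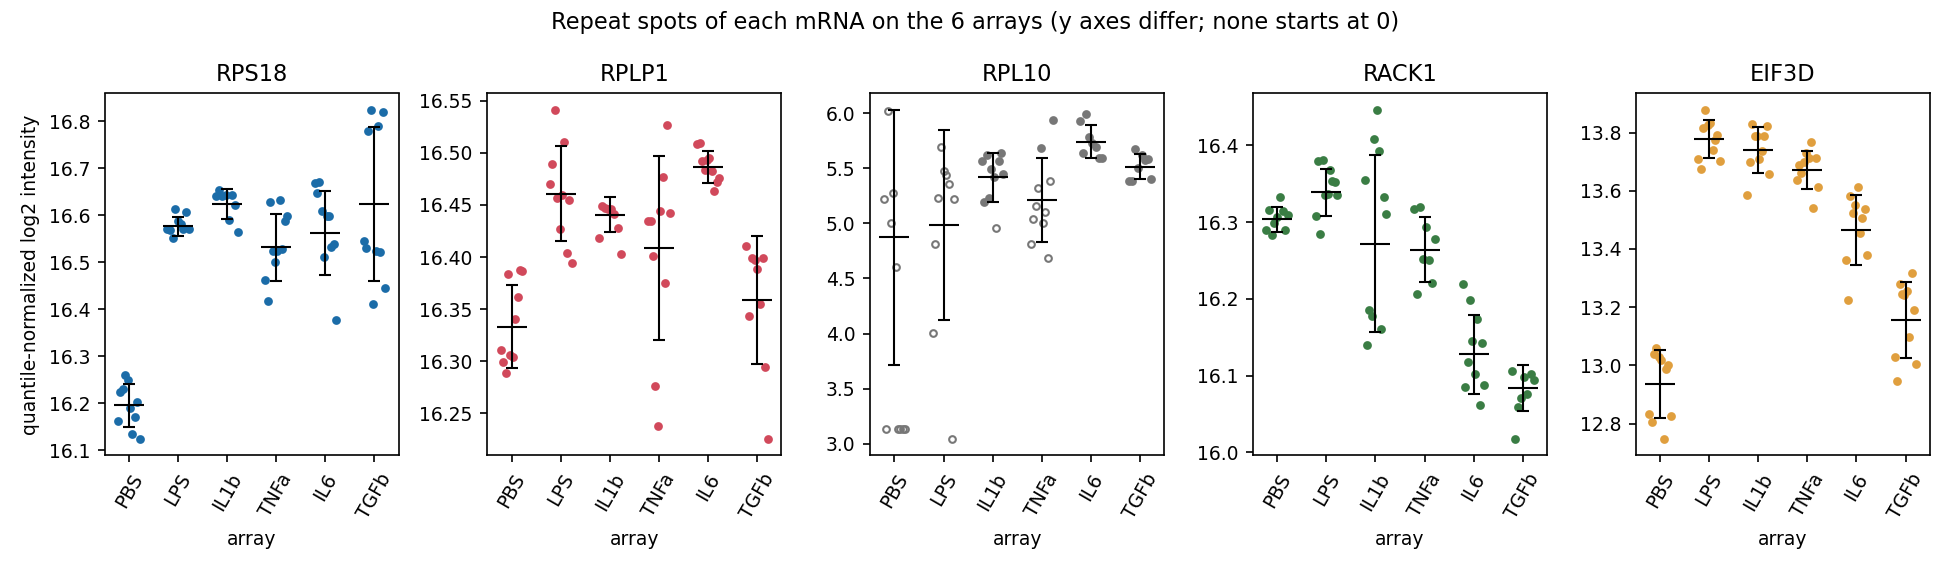
Quantile-normalized log2 intensity (vertical axis, a separate range in each panel) of every used spot of the 5 mRNAs on the 6 arrays (horizontal axis). Filled points are spots well above background, open points are not, and black marks are the level with the SD over spots. RPS18 is lowest on the PBS array (16.20), RACK1 on the TGFb array (16.08), EIF3D on the PBS array (12.94), and the RPL10 spots with PBS are all open.

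Differences between arrays depend on how the arrays are brought to 1 scale, and the directions of RPS18, RPLP1 and RACK1 against PBS were not settled. Scaled to the 75th percentile of the probes detected on every array, RPS18 lay between -0.59 and -0.14 relative to PBS, RPLP1 between -0.89 and -0.46 and RACK1 between -1.16 and -0.54. With no scaling all 3 were higher with every treatment, RPS18 by 0.78 to 1.48, RPLP1 by 0.39 to 1.10 and RACK1 by 0.14 to 1.02. Under cyclic loess RPS18 ran from -0.0074 to 0.33, RPLP1 from -0.39 to -0.15 and RACK1 from -0.50 to -0.37. EIF3D was above PBS under each of these, by 0.051 to 0.84 with the percentile of detected probes, 1.29 to 2.63 with no scaling and 0.39 to 0.92 with cyclic loess. The exception was the 75th percentile of all probes, where it ran from -0.51 with TGFb to 1.01 with LPS. The scalings moved all bright probes as well. The median difference of the 1671 bright probes under TGFb was -0.023 with quantile scaling, 0.050 with cyclic loess, -0.48 and -1.04 with the percentiles of detected and of all probes, and 0.76 with no scaling.

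Set against the median of the bright probes on the same pair of arrays, the differences varied less between scalings. EIF3D lay above it by 0.24 to 0.82 with quantile scaling, 0.34 to 1.00 with cyclic loess and 0.53 to 1.11 with no scaling. RACK1 lay between -0.20 and 0.0098 with quantile scaling, between -0.50 and -0.30 with cyclic loess and between -0.64 and -0.34 with no scaling. RPLP1 turned sign, from 0.048 to 0.16 with quantile scaling to between -0.31 and -0.20 with cyclic loess. RPS18 was above by 0.33 to 0.45 with quantile scaling and by 0.081 to 0.28 with cyclic loess, and ran from -0.075 to 0.094 with no scaling. Scaling to a percentile subtracts a constant from an array and gives the same values here as no scaling. EIF3D is by definition the dimmest of the bright probes on average, at a mean level of 13.46, and RACK1 lay at 16.23. A shift that varies with brightness is not removed by this comparison, and its part in these values was not tested.

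**Figure D3:**
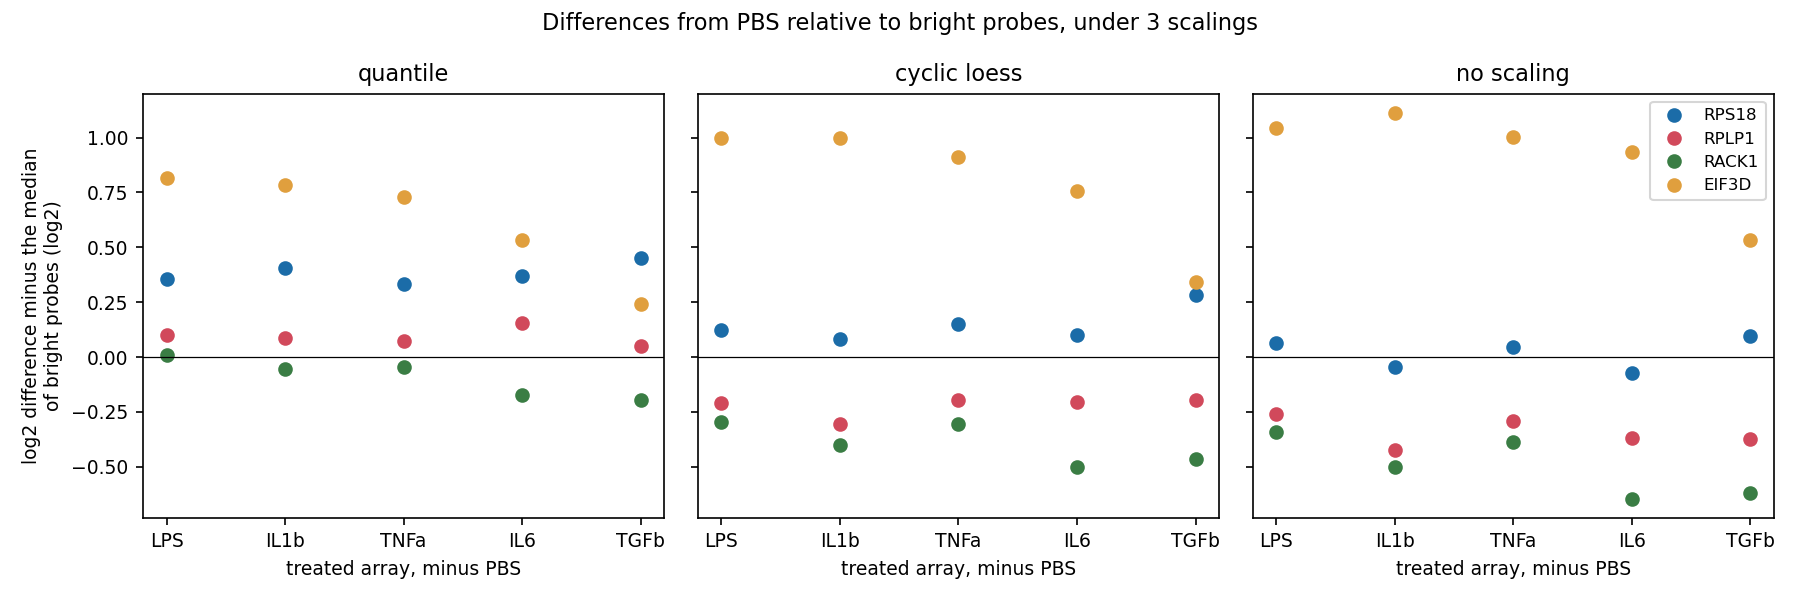
Log2 difference from PBS of the 4 well measured mRNAs minus the median difference of 1671 bright probes (vertical axis), by treatment (horizontal axis), with quantile scaling, cyclic loess and no scaling (panels from left to right). The points of a treatment share the PBS array. EIF3D is above 0 in all 3 panels (at least 0.24), and RPLP1 is above 0 with quantile scaling and below it in the other panels. EIF3D is by definition the dimmest of the bright probes, and a shift that varies with brightness is not removed.

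The change of 1 mRNA minus that of another on the same arrays removes a shift that is equal for all probes of an array. It does not remove a shift that varies with brightness. On the PBS array quantile scaling moved EIF3D from 11.90 to 12.94 and RACK1 from 15.87 to 16.30. The part of such a shift in the gaps of EIF3D was not tested. RPS18 exceeded RACK1 by 0.35 ± 0.020 under LPS, 0.46 ± 0.041 under IL1b, 0.38 ± 0.031 under TNFa, 0.54 ± 0.036 under IL6 and 0.65 ± 0.055 under TGFb (SE over spots). With no scaling these values were 0.41, 0.46, 0.44, 0.57 and 0.71. RPS18 exceeded RPLP1 by 0.21 under IL6 to 0.40 under TGFb, and RPLP1 exceeded RACK1 by 0.092 under LPS to 0.33 under IL6. EIF3D exceeded RACK1 by 0.81 ± 0.044 under LPS, 0.84 ± 0.058 under IL1b, 0.77 ± 0.045 under TNFa, 0.71 ± 0.056 under IL6 and 0.44 ± 0.057 under TGFb, and by 1.15 to 1.61 with no scaling. The order RPS18, RPLP1, RACK1 from the highest to the lowest difference from PBS was the same for every treatment under each of the 8 settings compared. Of these, both percentile scalings give by construction the same gaps as no scaling. Against the median of the other 5 arrays this order was kept with IL1b and TGFb, but not with LPS, TNFa or IL6. EIF3D came before RPS18 except with TGFb, where it lay 0.21 below with quantile scaling, in the deposited table and with outlier spots kept, 0.12 below with medians over spots, 0.058 above with cyclic loess and 0.44 above with no scaling. A gap on the PBS array enters all 5 comparisons, so these are not 5 separate observations.

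Between treated arrays, which leaves the PBS array out, the gaps were narrower for 5 of the 6 pairs of mRNAs with no scaling. The gap between RPS18 and RACK1 varied by 0.31 over the 5 treated arrays with no scaling, from LPS to TGFb, and on the PBS array it lay 0.46 below the median of the treated arrays. For EIF3D and RACK1 the range over treated arrays was 0.46, and PBS lay 1.39 below their median (0.77 with quantile scaling). For RPS18 and RPLP1 these values were 0.18 and 0.34, for EIF3D and RPS18 0.72 and 0.98, and for EIF3D and RPLP1 0.63 and 1.30. RPLP1 and RACK1 were the exception, with a range of 0.20 over treated arrays and PBS 0.095 below their median, and IL6 and TGFb stood at 0.18 and 0.15 above that median. With quantile scaling EIF3D and RPS18 joined this exception, with a range of 0.67 over treated arrays and PBS 0.38 below their median, so that PBS stood apart in this way for 4 of the 6 pairs.

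**Figure D4:**
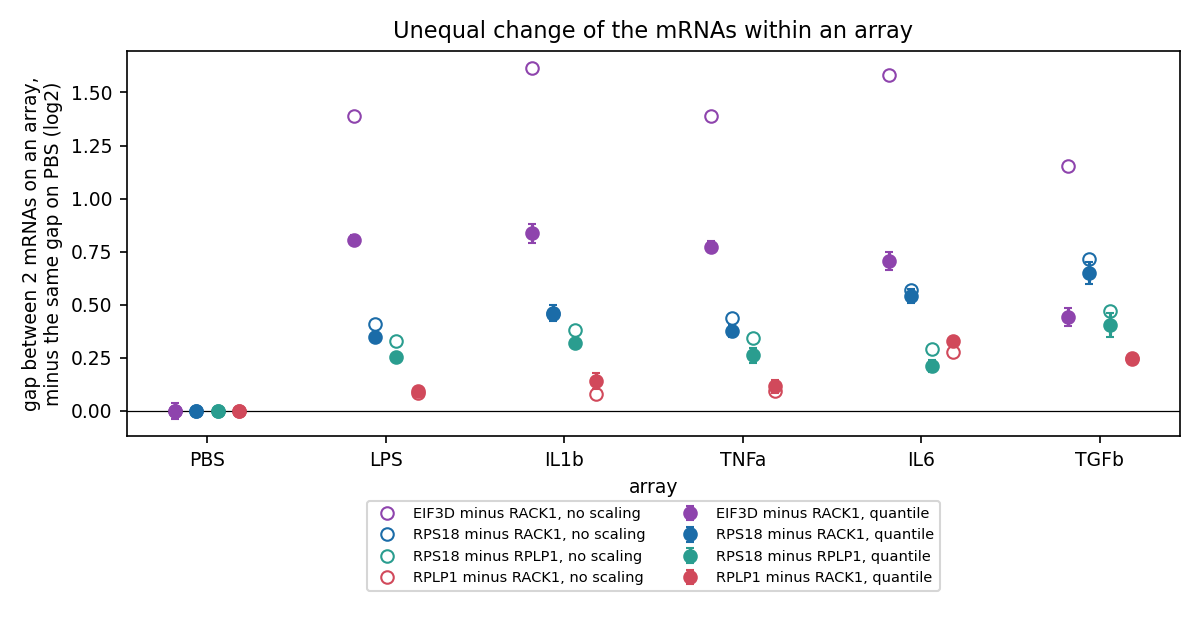
Gap between 2 mRNAs on an array for 4 pairs minus the same gap on the PBS array, in log2 units (vertical axis), for the 6 arrays (horizontal axis). Filled points use quantile scaling, with the standard error over spots of that array, and open points use no scaling; PBS is 0 by construction. EIF3D minus RACK1 is the widest of the 4 gaps with LPS (0.81 filled, 1.39 open), and RPLP1 minus RACK1 is wider with IL6 and TGFb than with the other treatments.

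Values of the 15 other repeatedly spotted mRNAs give the setting. Their median difference from PBS was 0.19 under LPS, 0.32 under IL1b, 0.18 under TNFa, 0.13 under IL6 and 0.038 under TGFb. The median of the 5 translation mRNAs was 0.13, 0.43, 0.33, 0.37 and 0.22 in the same order, and over the 19077 probes detected on every array it was -0.14, -0.19, -0.20, -0.075 and -0.045. Without RPL10 the median of the other 4 was 0.25, 0.27, 0.21, 0.26 and 0.12. At least 2-fold from PBS was 1 of the 15 with LPS, IL1b and TNFa and 0 with IL6 and TGFb. In the range of levels over 6 arrays, EIF3D ranked 5th of the 20 repeatedly spotted mRNAs from the widest, RPS18 12th, RACK1 17th and RPLP1 19th.

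The repeatedly spotted mRNAs closest in pattern were found by the root mean square difference of the 2 profiles over the 6 arrays, each centred on its own mean. Nearest to RPS18 were GAPDH, a glycolytic enzyme, at 0.070 and PFN1, an actin-binding protein, at 0.099. Nearest to RPLP1 were the actins ACTB at 0.051 and ACTG1 at 0.067, then GAPDH at 0.072. Nearest to RACK1 were ARHGDIA at 0.065, ACTB at 0.067 and ACTG1 at 0.089. Nearest to EIF3D were COX4I1, a subunit of cytochrome c oxidase, at 0.16, H3-3A, which encodes histone H3.3, at 0.16 and PRMT1, an arginine methyltransferase, at 0.20. For RPL10 the distances, 0.23 to GAPDH and to RPS18, rest on background values. Apart from that last one, no translation mRNA was among the 3 nearest of another with quantile scaling, while with no scaling RPLP1 was among the 3 nearest to RACK1. The order depended on the scaling. With no scaling GAPDH remained nearest to RPS18 (0.054), and H3-3A and COX4I1 nearest to EIF3D (0.17 and 0.18), but PFN1 fell to place 6 for RPS18 (0.16), ARHGDIA to place 6 for RACK1 (0.18), and for RPLP1 ACTB fell to place 3 (0.097) and GAPDH to place 6 (0.12). The points share arrays, and no test was made.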

How the data were processed

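The deposited intensity values are processed signals of Agilent's scanner software for 1 colour, per the file headers, and how the background was subtracted is not given in the sources used here. The labels instead describe a NimbleGen array and an Axon scanner, and the files were followed. Other flags per spot (outlier, saturated, well above background) were deposited by the authors; no spot of the 5 mRNAs was saturated. The deposited table of log2 values, for which the submitters' processing notes name RMA, matched the quantile-normalized values here (median absolute difference per array up to 0.00062). It is thus on the log2 scale and not centred, with column medians of 5.07 to 5.08. The labels' groups were used as given.

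Spots flagged as feature outliers were dropped, control spots left out and log2 values of repeat spots averaged. Of 60639 target probes, 60596 had a used spot on every array. Arrays were quantile normalized in limma 3.58.1 (R 4.3.3). Spot errors were computed after placing each spot on the same scale. The alternatives were scaling to the 75th percentile of all or of detected probes, cyclic loess (span 0.7, 3 iterations), no scaling, the deposited table, the median of the other 5 arrays as reference, medians over spots, outlier spots kept and a 1.5-fold threshold. The comparison with bright probes, the gaps between mRNAs and leaving out RPL10 were chosen after seeing the data. The members and lists were chosen with earlier results of these data known. All 5 mRNAs are named, and beside each the 3 repeatedly spotted mRNAs nearest in pattern, except 1 that is not reported here. Quantile normalization alone was tested on simulated data, a pair of arrays with known changes, and the other steps were not. The second simulated array was a shifted and compressed copy of the PBS values with few probes changed. Arrays that differ in background or in many probes, as these do, were not covered. Symbols and gene starts come from RefSeq tables of GRCh38.p14. The genome build of the array is not given in the sources used here.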

Additional observations from a re-analysis of the deposited data

How the results depend on the processing

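The median difference of the 5 mRNAs from PBS, 0.13 under LPS, 0.43 under IL1b, 0.33 under TNFa, 0.37 under IL6 and 0.22 under TGFb, depended on the scaling, and the cause was not tested. In the same order of treatments it was 0.035, -0.35, -0.26, -1.07 and -0.95 with the 75th percentile of all probes, -0.14, -0.44, -0.30, -0.59 and -0.39 with that of detected probes, and 0.87, 1.48, 0.78, 0.83 and 0.86 with no scaling. Cyclic loess gave 0.049, -0.0074, 0.080 and 0.097 for the first 4. Against the median of the other 5 arrays it was 0.052, 0.062, -0.032, -0.015 and -0.082. Without RPL10 it was 0.25, 0.27, 0.21 and 0.26 for the first 4. With LPS, where RPL10 and RPLP1 lay side by side, it was 0.33 in the deposited table and with outlier spots kept (0.33), and 0.38 with medians over spots. The count of mRNAs at least 2-fold from PBS, 0 throughout, became 1 with each treatment at 1.5-fold. With IL6 and TGFb that 1 was RPL10, against a PBS level at background, and it was lost with outlier spots kept (0.54 and 0.53). Under the 75th percentile of all probes the count was 1 with LPS, 4 with IL6 and 2 with TGFb. The 4 with IL6 were RPS18 (-1.07), RPLP1 (-1.37) and RACK1 (-1.64), lower than with PBS, and RPL10 (1.10), higher. Under the 75th percentile of detected probes the count was 2 with IL6 and 2 with TGFb. With no scaling it was 1, 5, 2, 2 and 2, and with medians over spots it was 1 with IL6. The share of all probes at least 2-fold from PBS was 12.1%, 19.0%, 18.0% and 28.9% with LPS, IL1b, TNFa and TGFb when both arrays had to be well above background. Signal over background limits RPL10 alone, and a single array per condition limits every value.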
